A study of Mus musculus with 6 samples.

Results

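Annexins are calcium-dependent proteins that bind acidic phospholipids, and the family was followed here in mIMCD3 cells, a mouse line of the inner medullary collecting duct, after 1 h with aldosterone or with vehicle. Members were all probe sets whose single annotated gene symbol was Anxa followed by a number. This rule found 12 of the 12422 probe sets on the array, for the 9 genes Anxa1 to Anxa8 and Anxa10, out of 8251 genes with a probe set of their own. Anxa1 had 3 probe sets, Anxa7 had 2 and each of the others had 1. A further 1 probe set listed an annexin together with other symbols and was not used here.

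The aldosterone group held 3 arrays and the vehicle group held 3 arrays, 1 of each from every replication of the experiment, and the cells carried no other treatment that the labels name. The sources used here give neither the hormone dose nor the software behind the values. The labels do not say whether replications came from separate cultures, so the p-values speak of the spread among these 6 arrays, which may be technical. All values come from 1 cell line, and a lower signal cannot be told apart between fewer expressing cells and less RNA per cell.

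The values in the deposited table were linear intensities. Their 2% trimmed means lay between 2488 and 2493 on 5 arrays and at 86.5 on the aldosterone array of replication 3, so each array was scaled to a trimmed mean of 2090, and all intensities below are on that scale. Low values are coarser on the aldosterone array of replication 3, where the last deposited decimal is worth 2.42 scaled units, against 0.0838 to 0.0840 on the other 5. The number of arrays limits the precision of every value. Of the epithelial and collecting duct markers on the array, 8 of 11 passed the filter on dim probe sets, among them Cdh16, Krt8, Krt18, Krt19 and Pax8, while the water channel Aqp2 and the vasopressin receptor Avpr2 did not. Summed intensities of those 8 ranged from 66474 to 79926 on aldosterone arrays and from 70329 to 86108 on vehicle arrays. Of markers of other cells, 3 of 9 for fibroblasts, 4 of 8 for leukocytes, 1 of 7 for endothelium and 2 of 6 for proximal tubule passed the filter. The collagen gene Col3a1 and the leukocyte gene Ptprc were among those that did not. Among those that passed, the leukocyte gene Cd14 was bright, with means of 5199 with aldosterone and 5907 with vehicle. A probe set of the collagen gene Col1a2 had means of 4126 and 4590, while another of that gene was too dim to pass.

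Annexins share a core of repeats, which in most members binds calcium and membrane, and differ mainly in the N-terminal tail that binds partners such as the S100 proteins. They take part in membrane traffic, in the link of membrane to the actin cortex and in the resealing of damaged membrane, and several are abundant in kidney tubule epithelium. Annexin A1 was first described as lipocortin, a protein that glucocorticoids induce and that restrains phospholipase A2, which gives the family a connection with corticosteroid action. Aldosterone is a related steroid that acts through the mineralocorticoid receptor and, at high dose, through the glucocorticoid receptor as well.

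The promoters of Anxa1 and Anxa2 are shown. Anxa1 is the member described as induced by glucocorticoids, and it differed between replications here. Anxa2 was the member whose aldosterone and vehicle arrays did not overlap with scaling to trimmed means. Both are from RefSeq, build GRCm38.p6, from 250 bases before the transcript start to 50 after it, read 5′ to 3′ on the gene's strand. The Anxa1 window is chr19:20390622-20390921 on the minus strand and the Anxa2 window is chr9:69453433-69453732 on the plus strand. Capitals mark the TATA motif TATAAA in both and the AP-1 motif TGAGTCA in Anxa2.
Anxa1: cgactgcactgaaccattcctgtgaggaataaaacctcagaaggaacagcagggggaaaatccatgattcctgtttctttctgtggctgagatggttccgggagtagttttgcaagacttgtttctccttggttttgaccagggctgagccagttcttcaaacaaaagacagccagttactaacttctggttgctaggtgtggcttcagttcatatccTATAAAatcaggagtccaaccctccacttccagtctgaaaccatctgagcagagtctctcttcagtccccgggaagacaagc
Anxa2: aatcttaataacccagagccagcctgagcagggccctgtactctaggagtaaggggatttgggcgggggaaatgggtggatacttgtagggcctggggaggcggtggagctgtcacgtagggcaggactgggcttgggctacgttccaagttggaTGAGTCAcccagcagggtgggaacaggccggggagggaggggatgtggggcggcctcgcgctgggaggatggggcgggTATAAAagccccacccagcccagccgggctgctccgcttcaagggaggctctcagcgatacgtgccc

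Promoter windows were matched for 7 of the 9 annexin genes, as 9 windows, since Anxa4 and Anxa7 each had more than 1 start. On both strands of each, 4 motifs were searched: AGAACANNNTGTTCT, the palindrome bound by glucocorticoid and mineralocorticoid receptors, the shorter TGTTCT, its right arm, TATAAA and TGAGTCA. The palindrome was in 0 of the 9 annexin windows, and in 0.00913% of all 32851 promoter windows. TGTTCT was in 1 of 9, an Anxa4 window, and in 19.0% of all. TATAAA was in 3 of 9, those of Anxa1, Anxa2 and Anxa10, and in 13.6% of all. TGAGTCA was in 2 of 9, those of Anxa2 and Anxa10, and in 5.20% of all. These are matches of letters in a short window and say nothing about binding.

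Of the 12 annexin probe sets, 10 passed the filter and were tested, the filter being set at the 40th percentile of mean log2 values, or 8.87. They covered Anxa1 to Anxa8. The probe set of Anxa2 ranked between percentiles 98.9 and 99.2 of brightness on the 6 arrays, and that of Anxa5 between 98.3 and 98.8. Those of Anxa3, Anxa4 and Anxa6 ranked between 92.7 and 96.1. The brighter probe set of Anxa7 ranked between 53.3 and 66.9 and that of Anxa8 between 37.5 and 50.3. Brightness depends on the probes as well as on the transcript, so these ranks place signals on the array and do not order the genes by transcript number.

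**Figure D1:**
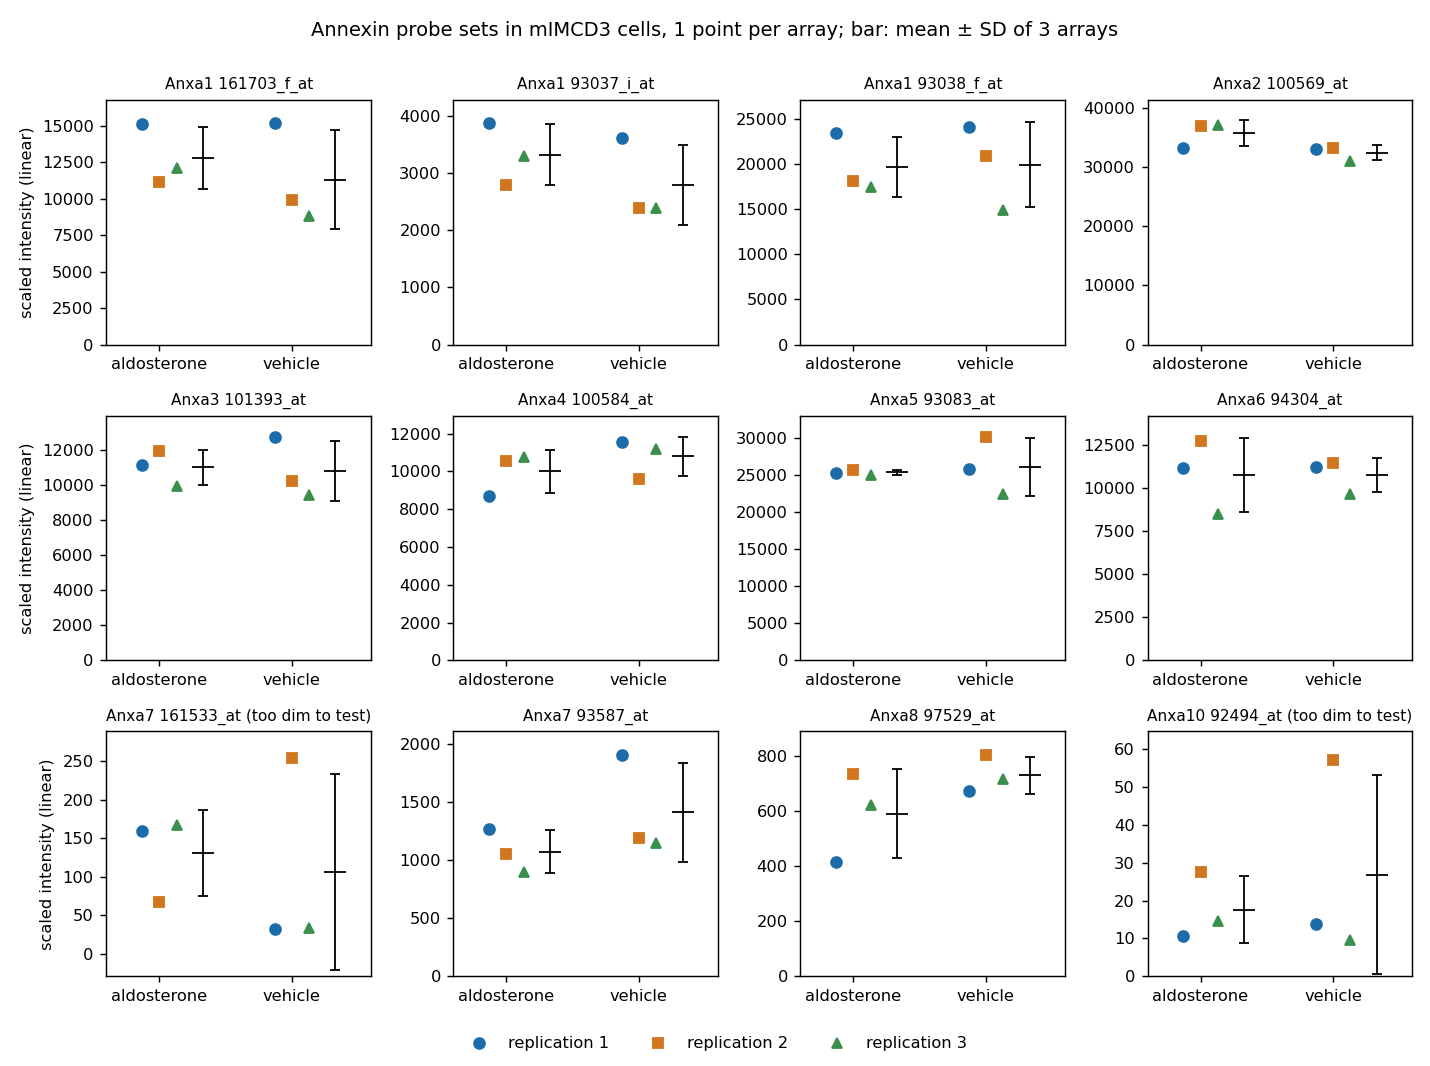
Scaled intensity (linear axis) of each of the 12 annexin probe sets, with 1 point per array, aldosterone left of vehicle, and the mean ± SD of 3 arrays beside each group. Aldosterone and vehicle arrays overlap in every panel except that of Anxa2, where the lowest aldosterone array (33243) lies just above the highest vehicle array (33226).

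After 1 h with aldosterone no annexin changed past the threshold. By limma, with group alone in the fit, 0 of 10 annexin probe sets had an adjusted p under 0.05, as was the case for 0% of all 7453 tested probe sets. With the replicate block the count was also 0 of 10. The block lowered the median SE of the annexin probe sets to 0.0989, from 0.179 on group alone. Over all tested probe sets it was 0.153, from 0.209. The smallest p of an annexin probe set in the limma fit with the block was 0.0687 unadjusted and 0.998 adjusted, for 93037_i_at of Anxa1. At an unadjusted p under 0.05 the counts were 0 of 10 annexin probe sets in either fit, against 0.617% of all probe sets higher and 0.349% lower on group alone and 2.07% higher and 1.29% lower with the block. By sign 4 of 10 were higher, against 49.9% of all tested probe sets. With scaling to a common median it was 6 of 10, against 57.8% of all, and on leaving out single arrays it ran from 3 to 6 of 10. The median log2 difference, aldosterone minus vehicle, was -0.0094 for the annexins and -0.00029 for all tested probe sets, and the median size regardless of sign was 0.13 for the annexins and 0.10 for all. For scale, Sgk1, the kinase that aldosterone is known to induce early, had a log2 difference of 1.63, or 3.10-fold, and the clock gene Per1 had 1.26, or 2.39-fold, on the same arrays. Neither passed the threshold over all probe sets (limma's adjusted p = 0.242 for each). With the replicate block limma's adjusted p was nearer to it, at 0.0509 for Sgk1 and 0.0722 for Per1.

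**Figure D2:**
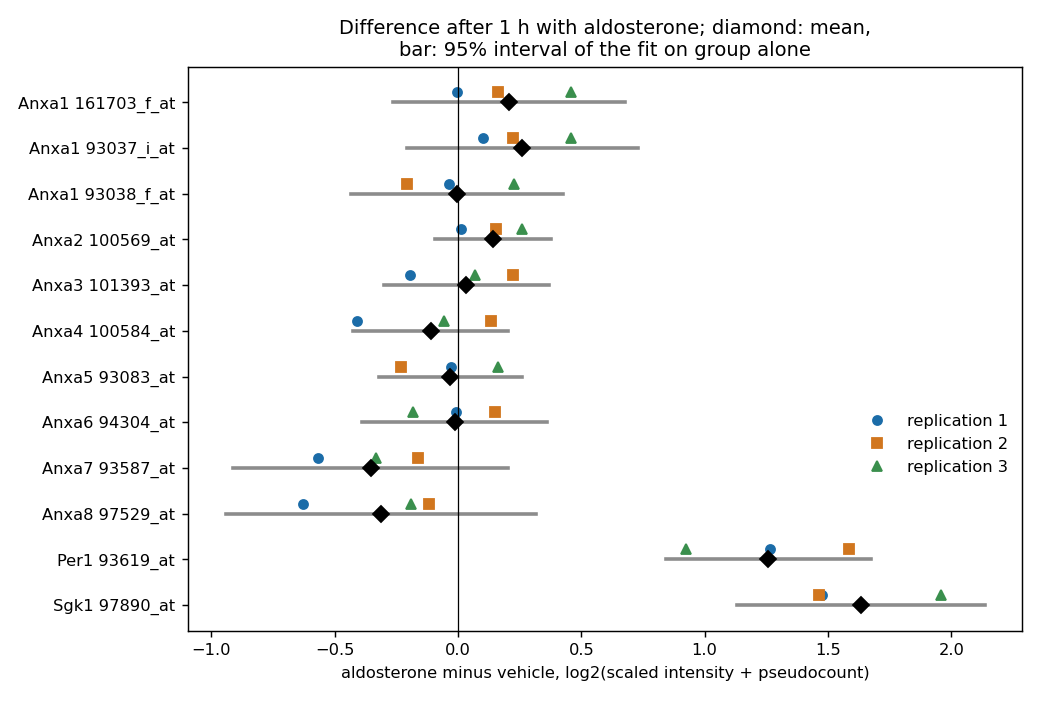
Difference between aldosterone and vehicle on the log2(scaled intensity + pseudocount) scale for the 10 tested annexin probe sets and for Per1 and Sgk1, with the difference in each replication, the mean (diamond) and its 95% interval in the fit on group alone (bar). All 10 annexin intervals include 0 and the means lie between -0.35 and 0.26, whereas Per1 and Sgk1 lie at 1.26 and 1.63.

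Anxa1, the lipocortin gene, had 3 probe sets, 2 of them higher on average with aldosterone and the third near 0. Probe set 161703_f_at read 15147, 11120 and 12129 on the aldosterone arrays of replications 1, 2 and 3, against 15179, 9941 and 8813 on the vehicle arrays. The vehicle arrays alone spanned a wider range than the difference between the groups, at 0.21 ± 0.209 (log2, SE; 95% interval -0.26 to 0.68, limma's adjusted p = 0.9995). Probe set 93037_i_at read 3869, 2793 and 3293 on aldosterone arrays, against 3599, 2388 and 2383 on vehicle arrays. It was higher in 3 of 3 replications, and its difference was 0.26 ± 0.208 (log2, SE; 95% interval -0.21 to 0.73, adjusted p = 0.9995). The block gave this probe set an interval of -0.025 to 0.55. The brightest, 93038_f_at, read 23431, 18054 and 17396 on aldosterone arrays, against 24051, 20853 and 14847 on vehicle arrays. It was higher in 1 of 3 replications, with a difference of -0.0057 ± 0.191 (log2, SE), which turned to 0.022 with scaling to a common median. The suffixes _f_at and _i_at mark probe sets whose probes match a sequence family or are reduced in number. The intervals of the 3 probe sets reached at most 1.66-fold, so a rise of Anxa1 as large as that of Sgk1 lies outside them.

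Anxa2, which pairs with S100a10 and links membrane to actin, was the member with the smallest relative spread. It read 33243, 36956 and 37034 on aldosterone arrays, against 32973, 33226 and 30945 on vehicle arrays. On this scaling every aldosterone array lay above every vehicle array, though the nearest 2 were almost equal. Such an order held for 1 of 10 annexin probe sets and for 1.91% of all tested, and the opposite order for 0 of 10 and for 2.27%. The scaled median over all probe sets was 843 on the aldosterone array of replication 1, against 793 and 791 on the vehicle arrays of replications 1 and 2. Scaling to a common median therefore puts Anxa2 on that aldosterone array below those vehicle arrays. The means were 35744 ± 2167 with aldosterone and 32381 ± 1250 with vehicle (SD, n = 3 each). The difference was 0.14 ± 0.104 (log2, SE), or 1.10-fold with a 95% interval of 0.937 to 1.30 (limma's adjusted p = 0.9995). In the fit with the replicate block the interval was 0.983 to 1.24 (limma's unadjusted p = 0.0852). Within replications 1, 2 and 3 it was 0.012, 0.15 and 0.26, so nearly all of it came from replications 2 and 3. The coefficient of variation over the 6 arrays was 7.13%, and 6.35% of all tested probe sets had a smaller one.

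Anxa3, Anxa4, Anxa5 and Anxa6 had folds between 0.926 and 1.02, with both directions among the replications of each. Anxa3 read 11116, 11935 and 9912 on aldosterone arrays, against 12726, 10216 and 9444 on vehicle arrays, and the groups overlapped throughout. Anxa4, an epithelial annexin that aggregates membranes, read 8687, 10573 and 10765 on aldosterone arrays, against 11571, 9622 and 11209 on vehicle arrays. Its lowest value was the aldosterone array of replication 1, where the log2 difference was -0.41, against 0.14 and -0.058 in replications 2 and 3. Anxa5, which binds exposed phosphatidylserine and is used to stain dying cells, read 25291, 25771 and 25089 on aldosterone arrays, against 25820, 30215 and 22411 on vehicle arrays. The aldosterone arrays lay within the vehicle range. Anxa6, the member with a doubled core, read 11167, 12760 and 8502 on aldosterone arrays, against 11226, 11492 and 9653 on vehicle arrays. The log2 differences were 0.033 for Anxa3, -0.11 for Anxa4, -0.032 for Anxa5 and -0.013 for Anxa6, with standard errors of 0.149, 0.140, 0.129 and 0.167. On group alone the 95% intervals of these 4 genes ran from 0.744-fold at the lowest to 1.29-fold at the highest. Larger changes than these lie outside them at this spread. In the fit with the replicate block the intervals ran from 0.779-fold, for Anxa4, to 1.19-fold, for Anxa3.

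Among the 10 tested probe sets the larger differences were downward, in the dimmer members. Anxa7, also called synexin, promotes membrane fusion. Its brighter probe set, 93587_at, read 1265, 1054 and 902 on aldosterone arrays, against 1902, 1187 and 1148 on vehicle arrays. The value was lower in 3 of 3 replications, but the aldosterone array of replication 1 lay above the vehicle arrays of replications 2 and 3, so the groups overlapped. The means were 1073 ± 182 with aldosterone and 1412 ± 425 with vehicle (SD, n = 3 each), a difference of -0.35 ± 0.248 (log2, SE; 95% interval 0.531- to 1.15-fold, limma's adjusted p = 0.9995). A difference of this size or less was seen in 91.3% of all tested probe sets. In the fit with the replicate block the interval of Anxa7 was 0.587- to 1.04-fold (limma's unadjusted p = 0.0851). Anxa8 read 415, 736 and 621 on aldosterone arrays, against 671, 803 and 716 on vehicle arrays. It too was lower in 3 of 3 replications, with a difference of -0.31 ± 0.280 (log2, SE), of which -0.63 in replication 1 was the largest part. Being lower in 3 of 3 replications held for 2 of 10 annexin probe sets and for 11.5% of all tested. With scaling to trimmed means, being higher in 3 of 3 held for 2 of 10, Anxa2 and a probe set of Anxa1, and for 10.5% of all.

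The remaining 2 probe sets were too dim to be tested. Probe set 161533_at of Anxa7 read 159, 67.2 and 167 on aldosterone arrays, against 31.9, 254 and 34.0 on vehicle arrays. It was higher in replications 1 and 3 and lower in replication 2, with a mean log2 difference of 0.43, while the brighter probe set of the gene was lower in all 3. Anxa10, whose calcium-binding sites are largely lost and which is best known from gastric epithelium, read 10.6, 27.6 and 14.5 on aldosterone arrays, against 13.8, 57.0 and 9.64 on vehicle arrays. These values lay at or below percentile 5.35 of brightness on every array. No change is given for Anxa10 at this signal.

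**Figure D3:**
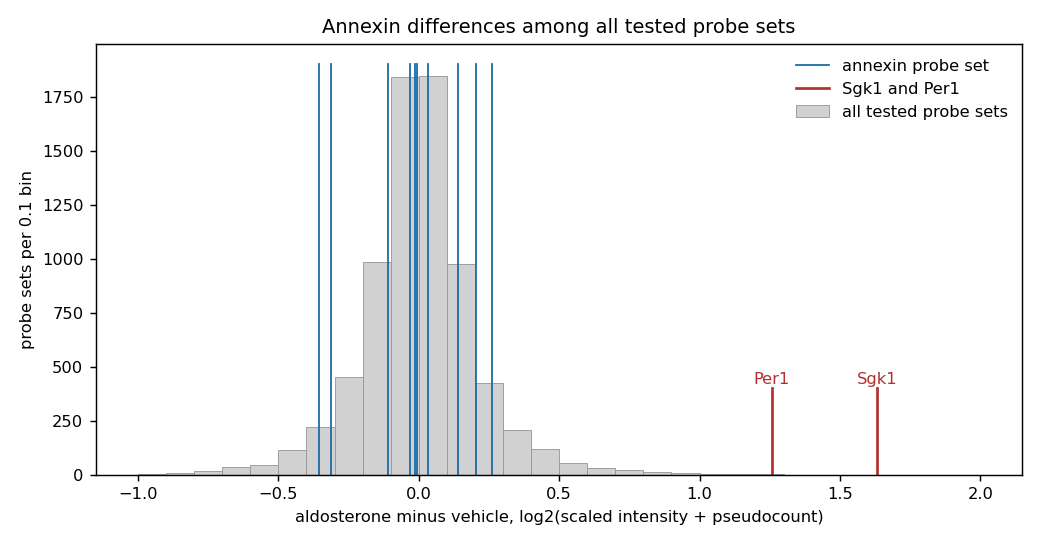
Number of tested probe sets per 0.1 bin of the difference between aldosterone and vehicle (log2 scale), with the 10 annexin probe sets as long blue lines and Per1 and Sgk1 as short red lines whose height has no meaning. The annexins lie between -0.35 and 0.26, and Per1 and Sgk1 lie far to the right at 1.26 and 1.63. Of the 7453 probe sets, 91.3% had a difference no larger in size than that of Anxa7 93587_at, and 88.7% no larger than that of Anxa8.

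Between replications of the experiment, Anxa1 was the annexin that differed past the threshold, with its highest signal in replication 1. In limma's F test over replications, with group in the fit, 2 of 10 annexin probe sets had an adjusted p under 0.05, against 7.82% of all tested probe sets, and both were of Anxa1. Probe set 161703_f_at had mean intensities of 15163, 10530 and 10471 in replications 1, 2 and 3, a 1.46-fold distance between the highest and the lowest (adjusted p = 0.0367). Probe set 93038_f_at had 23741, 19454 and 16122, a 1.48-fold distance (adjusted p = 0.0398). The remaining one, 93037_i_at, had 3734, 2590 and 2838 and did not pass (1.44-fold, adjusted p = 0.112). In all 3 probe sets both arrays of replication 1 lay above the other 4. The probe sets measure 1 gene on the same RNA, so they are not separate evidence. Over the 6 arrays, which are not independent of treatment and replication, their log2 values correlated at Pearson's r of 0.653 to 0.966.

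The calls for Anxa1 were lost without either array of replication 1. Without its vehicle array the adjusted p was 0.293 for 161703_f_at and 0.199 for 93038_f_at, and without its aldosterone array it was 0.1002 and 0.170. Without the vehicle array of replication 3 it was 0.0126 and 0.0785. Without the aldosterone array of replication 3, the array that had been on another scale, both stayed past the threshold, at 0.00411 and 0.00460. Scaling the arrays to a common median gave 0.0804 and 0.114, and leaving the intensity trend out of the fit gave 0.223 and 0.240, so neither probe set passed under those settings. In that last fit 2 of all 7453 probe sets passed. Among the marker lists, in the fit with the trend, 1 of 8 tested epithelial genes passed, the keratin gene Krt7, with mean intensities of 4702, 4643 and 1932 in replications 1, 2 and 3 (adjusted p = 0.00598), and 0 of the 10 tested markers of other cells did. Without the trend the adjusted p of Krt7 was 0.126, and without the vehicle array of replication 1 it was 0.0547. Krt7 was low in replication 3 and near equal in the other 2, and its part in the difference of Anxa1 was not tested.

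Other annexins had their own order of replications without passing the test. Anxa6 had mean intensities of 11196, 12126 and 9078 in replications 1, 2 and 3 (adjusted p = 0.0876), and passed only without the vehicle array of replication 2 (adjusted p = 0.0313). The brighter probe set of Anxa7 had 1583, 1121 and 1025 (adjusted p = 0.211), and Anxa8 had 543, 769 and 668 (adjusted p = 0.509). Anxa3 had 11921, 11075 and 9678, Anxa4 had 10129, 10098 and 10987, and Anxa5 had 25555, 27993 and 23750, with adjusted p between 0.251 and 0.717. Anxa2 was the flattest, at 33108, 35091 and 33990, a 1.06-fold distance (adjusted p = 0.781). Both arrays of replication 1 lay above the other 4 for 4 of 10 annexin probe sets, 3 of them of Anxa1 and 1 of Anxa7, against 11.7% of all tested. Those of replication 2 did so for 2 of 10, Anxa6 and Anxa8, against 12% of all. Both arrays of replication 3 lay below the other 4 for 4 of 10, those of Anxa3, Anxa5, Anxa6 and 1 of Anxa1, against 14.5% of all. Both arrays of replication 3 lay above the other 4 for 0 of 10, against 16.5% of all.

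**Figure D4:**
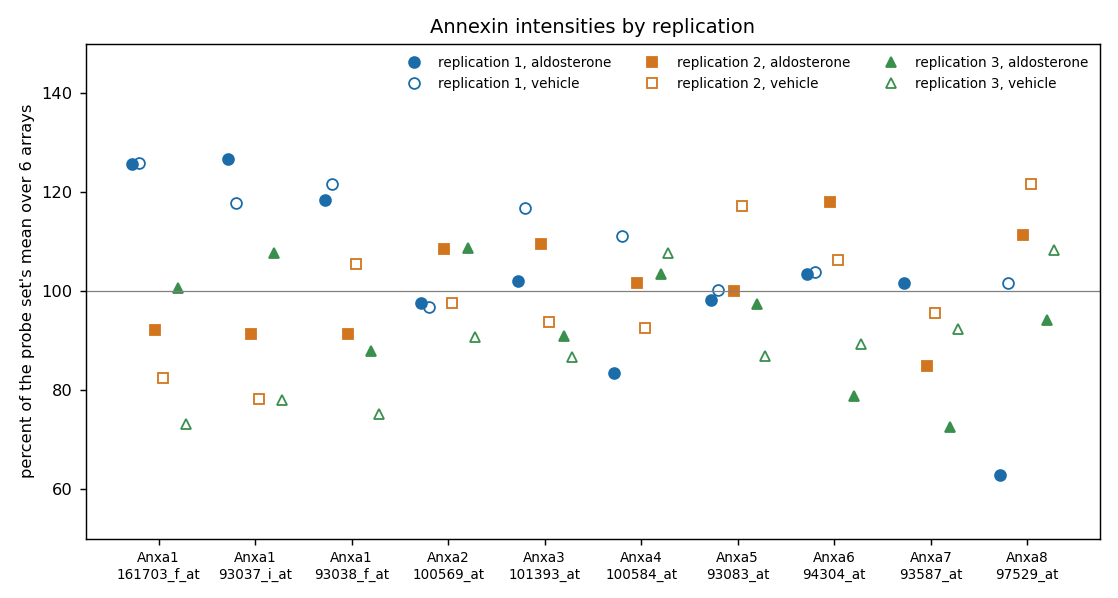
Intensities of the tested annexin probe sets, each as a percent of its probe set's mean over the 6 arrays, by replication, with filled marks for aldosterone and open marks for vehicle. The vehicle array of replication 1 for Anxa7 93587_at, which read 1902, lies above the top of the axis and is not drawn. The arrays of replication 1 stand above the rest in all 3 probe sets of Anxa1, and the arrays of Anxa2 stay together.

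The annexin genes did not move as a block over the 6 arrays. Taking the brightest probe set of each gene, pairwise Pearson's r of log2 values ran from -0.52, for Anxa2 with Anxa7, to 0.69, for Anxa1 with Anxa3. These arrays share replications and treatments, and the values are a description. The tested genes whose pattern was most like that of Anxa1 over the 6 arrays were Lhx3 (r = 0.998), Ppp1r15b (r = 0.996) and Il18r1 (r = 0.984). For Ppp1r15b, a regulatory subunit of a phosphatase, the intensities were 5650, 4490 and 4352 on aldosterone arrays, against 5989, 5269 and 3832 on vehicle arrays. With 6 points and 5640 genes to choose from, a high r is easily found. None of these genes passed the test between replications (adjusted p of 0.541, 0.103 and 0.140).

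The S100 proteins, small calcium-binding proteins that dock to annexin tails, gave no call. Of 17 listed genes 13 were on the array and 7 were tested, of which 0 passed the threshold in limma's fit in either direction, and 0 had an unadjusted p under 0.05. With the replicate block 0 passed. By sign 4 were higher and 3 lower, and their median log2 difference was 0.0020, against -0.0021 over all 5640 tested genes. S100a10, the partner of annexin A2, read 21095, 20352 and 20510 on aldosterone arrays, against 20915, 22026 and 17508 on vehicle arrays. The aldosterone arrays lay within the vehicle range, and the difference was 0.042 ± 0.122 (log2, SE). A dimmer tested probe set of S100a10 read 360, 720 and 450 on aldosterone arrays, against 397, 620 and 525 on vehicle arrays. Its log2 difference was -0.042, and here the aldosterone arrays reached beyond the vehicle range on both sides. S100a6, which binds several annexins, read 57500, 72875 and 61994 on aldosterone arrays, against 60310, 70096 and 52359 on vehicle arrays. Its difference was 0.077 ± 0.137 (log2, SE). The other tested members had log2 differences of 0.30 for S100a4, 0.0020 for S100a1, -0.095 for S100a14, -0.19 for S100a3 and -0.19 for S100a13. That of S100a4 was 1.06, -0.14 and -0.021 in replications 1, 2 and 3, with a low vehicle array of 242 in replication 1. Dimmer tested probe sets of S100a13 gave -0.00031 and -0.14. S100a5, S100a8, S100a9, S100a16, S100b and S100g were too dim to be tested. Over the 6 arrays the log2 values of Anxa2 and S100a10 correlated at r = 0.407, as a description.

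Other genes of annexin pathways gave 0 calls in either direction at an adjusted p under 0.05 by limma, with or without the replicate block, in 27 tested genes. At an unadjusted p under 0.05 there were 1 higher and 0 lower on group alone, against 0.617% and 0.349% of all tested probe sets, and 2 higher and 0 lower with the block, against 2.07% and 1.29%. These were Pla2g1b in both fits and Plgrkt with the block. Of the plasminogen system, which annexin A2 with S100a10 serves at the cell surface, 6 of 9 listed genes were tested, 2 higher and 4 lower by sign (median -0.12). The plasminogen receptor gene Plgrkt read 4239, 3322 and 4083 on aldosterone arrays, against 3413, 2484 and 2976 on vehicle arrays. It was higher in 3 of 3 replications, with a difference of 0.39 ± 0.175 (log2, SE; limma's adjusted p = 0.9995). Plg, for plasminogen itself, was dim, at 510 ± 85.0 with aldosterone and 699 ± 154 with vehicle (SD, n = 3 each).

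Among formyl peptide receptors, the receptors of annexin A1, and phospholipases A2, the enzymes it restrains, 6 of 20 listed genes were tested, 4 higher and 2 lower by sign (median 0.080). The secreted phospholipase gene Pla2g1b, the 1 of these 6 with an unadjusted p under 0.05 in either fit, read 3817, 2931 and 3290 on aldosterone arrays, against 2435, 2849 and 2298 on vehicle arrays. The groups did not overlap, as was the case in the upward direction for 1.91% of all tested probe sets, and the difference was 0.39 ± 0.168 (log2, SE; limma's adjusted p = 0.9995). The cytosolic phospholipase Pla2g4a was at 1002 ± 151 with aldosterone and 1019 ± 71.1 with vehicle, and Pla2g10 was at 412 ± 228 with aldosterone and 579 ± 54.9 with vehicle (SD, n = 3 each). The receptor gene Fpr2 was too dim to be tested, with 21.4 ± 3.60 on aldosterone arrays and 37.2 ± 9.62 on vehicle arrays.

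Of the list of membrane repair genes and annexin partners, 12 of 19 were tested, 6 higher and 6 lower by sign (median 0.00010). Sri, for the calcium-binding protein sorcin that binds annexin A7, had a difference of 0.11 ± 0.159 (log2, SE), and the protease gene Capn1 had -0.16 ± 0.224 (log2, SE). Between replications 3 of these 12 passed the F test, against 7.73% of all tested genes. Ahnak, a large scaffold that binds annexin A2 with S100a10, read 20559, 14189 and 19243 on aldosterone arrays of replications 1, 2 and 3, against 23754, 13956 and 17748 on vehicle arrays (1.57-fold, adjusted p = 0.0169). It was highest in replication 1, as Anxa1 was, but lowest in replication 2. Rasa1, the Ras GTPase activator that annexin A6 recruits, was highest in replication 3 (1.72-fold, adjusted p = 0.0248), where Anxa6 had its lowest mean. Capn1 was highest in replication 2 (1.53-fold, adjusted p = 0.0442). All 3 calls were lost without the intensity trend, where the adjusted p was 0.193 for Ahnak, 0.158 for Rasa1 and 0.222 for Capn1. They were lost too without the vehicle array of replication 1 (0.109, 0.0904 and 0.138 for Ahnak, Rasa1 and Capn1) and without its aldosterone array (0.0616, 0.0779 and 0.0845). Rasa1 did not pass without the vehicle array (0.0857) or the aldosterone array (0.0916) of replication 3, nor Capn1 without the aldosterone array of replication 2 (0.0726) or with quantile normalization (0.0516). The copines, another family that binds phospholipid through calcium, had 3 tested genes of 9, with log2 differences of 0.24 for Cpne1, 0.15 for Cpne3 and -0.32 for Cpne6.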

How the data were processed

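Total RNA of mIMCD3 cells was measured on 6 single-colour arrays, 3 with aldosterone and 3 with vehicle. The deposited values are linear intensities, 1 per probe set, and the sources used here do not give the steps the authors took to make them. The 2% trimmed means differed by more than 10%, so every array was scaled to their mean, 2090. They were analysed as log2(value + 53.0), where 53.0 is the 10th percentile of all scaled values, so fold changes of dim probe sets are understated. Probe sets with a mean of at least 8.87 were tested, 7453 of 12422.

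Groups were compared by limma 3.58.1 in R 4.3.3 (lmFit, eBayes with an intensity trend, two-sided, Benjamini-Hochberg over all 7453, threshold 0.05) on group alone, and replications by its F test with group in the fit. With 3 arrays against 3, an exact permutation test cannot go below p = 0.1. The replication numbers pair the arrays: deviations from the group means of same-numbered arrays correlated at 0.377, 0.387 and 0.471, so a fit with the replicate block was an alternative.

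Symbols came from the array's annotation (10833 probe sets with 1 symbol, 396 with several, 1193 with none), of which 10817 matched RefSeq genes of GRCm38.p6 by Entrez identifier, with 0 symbols changed. Where a gene was needed once, its brightest tested probe set was taken. Members and lists were chosen with earlier results of these data known. The rule for named genes took every annexin probe set, every measured S100 gene, 2 tested genes of smallest p of each other list and any called, and the 3 genes most like a called annexin. Outside it, Pla2g4a, Fpr2, Cpne6 and the markers were named for their role, Ahnak and Rasa1 for their call between replications. Alternatives changed the scaling, pseudocount, filter, intensity trend, block or arrays.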

Additional observations from a re-analysis of the deposited data

How the results depend on the processing

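No annexin probe set was called between aldosterone and vehicle under any of the 18 settings run, 9 of them leaving out an array or a replication; no gene of the lists was called either. Over all probe sets the count of 0 became at most 1, without the vehicle array of replication 2 (range 0 to 1 on leaving out arrays or replications, with 72 at an unadjusted p under 0.05 in the fit on group alone). The replicate block gave 0 calls over all probe sets and 0 among annexins, and changed no other call; the block with no intensity trend, chosen after seeing the data, also gave 0. At an unadjusted p under 0.05 that last fit had 1 of 10 annexin probe sets and 279 of all 7453. It was Anxa7 93587_at, lower (limma's unadjusted p = 0.0432). Without the vehicle array of replication 1 there were 1 of 10 and 135 of 7453, with Anxa1 161703_f_at higher (limma's unadjusted p = 0.0339). Directions near 0 turned: scaling to a common median gave 0.022 for 93038_f_at of Anxa1 and 0.015 for Anxa6. Leaving out arrays or replications gave log2 differences of -0.20 to 0.14 for 93038_f_at of Anxa1, -0.062 to 0.16 for Anxa3, -0.23 to 0.039 for Anxa4, -0.14 to 0.077 for Anxa5 and -0.14 to 0.15 for Anxa6. Those of the other 5 tested probe sets kept their sign under all settings that tested them: 0.046 to 0.44 for 161703_f_at and 0.15 to 0.45 for 93037_i_at of Anxa1, 0.083 to 0.21 for Anxa2, -0.48 to -0.13 for Anxa7 and -0.48 to -0.099 for Anxa8 on leaving out arrays or replications. Between replications, 2 annexin probe sets were called; the count was 0 with scaling to a common median and 0 with no intensity trend, where 2 of all probe sets were called instead of 583; the cause was not tested. Leaving out single arrays gave 41 to 1163 probe sets and 0 to 3 annexin probe sets, with fewer samples in each fit. The filter at the 60th percentile left out Anxa7 and Anxa8.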
